A study of Mus musculus with 9 samples.

Results

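Expression of 10 genes of fibroblast growth factor (FGF) signaling was followed in cultured mouse articular chondrocytes: the receptors Fgfr1, Fgfr2, Fgfr3 and Fgfr4, the ligands Fgf2 and Fgf18, the Sprouty inhibitors Spry1, Spry2 and Spry4, and the ERK phosphatase Dusp6. They were listed by name for their place in the pathway, with earlier results of these data known. All 10 were found among the 55471 genes listed in the files, and all 10 had enough counts to be tested.

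FGF ligands bind receptor tyrosine kinases at the cell surface and switch on the RAS-ERK cascade, which in turn induces its own inhibitors, among them the Sprouty proteins and DUSP6, a phosphatase that dephosphorylates ERK. In cartilage the receptors are known for opposed roles. FGFR3 is the classical brake on the proliferation of growth plate chondrocytes and the receptor mutated in achondroplasia, FGF18 is a ligand that signals through it, and FGF2 acting through FGFR1 is commonly linked to matrix breakdown.

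RNA-seq was done on 9 cultures of articular chondrocytes taken from wild-type mice at postnatal day 5, in 3 groups of 3. Ad-Control cells (named Control in the sample annotations) were infected with a control adenovirus, Ad-OSCAR cells with an adenovirus that expresses the collagen receptor OSCAR, and the treated group with Ad-OSCAR followed by 5-ASA (mesalamine, an aminosalicylate used against colitis). The dose in the methods was 10 µM. The comparisons asked what OSCAR overexpression changes in chondrocytes and what 5-ASA changes on top of it, so no group shows 5-ASA without Ad-OSCAR. The annotations give 10% serum, 3 days of culture, 2 h of infection at an MOI (infectious virus per cell) of 400 and 36 h before 5-ASA, whereas the methods give other values for the days and the MOI and name no wait between infection and 5-ASA. All plates were coated with COLpep, a collagen peptide that binds OSCAR. OSCAR was thus made from a viral vector at a level far above its own, and the labels do not tie the cultures of a group to separate animals. The methods describe replicates in general as biologically independent samples, without saying what this means for these cultures. The p-values below therefore measure only the spread between these cultures.

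The authors' estimated counts summed to between 19733448 and 28192740 per culture. Levels are given as CPM (counts scaled by the effective library size), and levels of different genes are compared only as TPM, which is scaled by transcript length as well. For Oscar itself the estimated counts were 3 to 4 per Ad-Control culture, 173445 to 187278 after Ad-OSCAR and 80766 to 94199 when 5-ASA was added, as the labels have it. It was lower with 5-ASA than without it by 0.97 on the log2 scale (log2FC −0.97, SE 0.06, adjusted p = 1.76e-08, edgeR's quasi-likelihood test), and hence the groups that differ in 5-ASA also differ in the level of OSCAR. Of 13 markers of articular chondrocytes, 12 fell and 1 (Prg4, lubricin) rose with Ad-OSCAR, and their summed level went from 15862 to 17965 TPM in Ad-Control to between 1606 and 1749 TPM. In the treated cultures that sum was between 1702 and 1864 TPM. Of 7 macrophage markers, 5, including Ptprc and Adgre1, stayed under 1 TPM in every culture, whereas Cd68 and Cd14 rose with Ad-OSCAR. Of 7 fibroblast markers, 6 fell and 1 (Col3a1) rose, with a summed level of 4820 to 4973 TPM in Ad-Control and 4303 to 4804 TPM in Ad-OSCAR, and of 5 osteoblast markers 2 fell. With 5-ASA, 6 chondrocyte, 5 fibroblast and 1 osteoblast marker rose, and Prg4, Cd68 (1.30-fold), Cd14 (1.22-fold) and the endothelial marker Tek fell. Tek was rare (0.16 to 1.06 TPM) and had risen with Ad-OSCAR (log2FC 1.88), and the other 4 endothelial markers stayed under 1 TPM in every culture. By the same test, 65.0% of all genes tested changed with Ad-OSCAR and 17.8% with 5-ASA (adjusted p below 0.05). In RNA from whole cultures, fewer cells of a type and less RNA per cell cannot be told apart, and the part of these markers in the results below was not tested.

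A gene was called changed when its adjusted p was below 0.05 in edgeR's quasi-likelihood test (Benjamini-Hochberg over 15362 genes). Between Ad-OSCAR and Ad-Control, 9 of the 10 genes were called, where 65.0% of all genes tested were. Of the 10, 5 fell (the 4 receptors and Fgf2), 4 rose (Fgf18, Spry2, Spry4 and Dusp6), and Spry1 did not pass the test. The median log2FC of the 10 genes was −0.17, beside 0.02 over all genes tested. Under a stricter limit that the methods set for OSCAR, an absolute log2FC above 1.5, 4 of the 10 genes passed (Fgfr3, Fgfr4, Fgf18 and Dusp6), where 9.96% of all genes did.

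Between treated and untreated Ad-OSCAR cells, 5 of the 10 genes were called, where 17.8% of all genes tested were. Fgfr4, Fgf2, Spry1 and Spry4 rose and Dusp6 fell. The median log2FC of the 10 genes was 0.10, beside −0.00 over all genes. Of these calls, the fall of Dusp6 and the rise of Spry1 held under all 17 alternative settings. With the first or the third Ad-OSCAR culture left out, 3 of the 10 genes were called. On the authors' TPM, where more of all called genes were lower (1487) than higher (562) instead of 1134 and 1598, 2 of the 10 genes were called, 1 in each direction. By the limit of the methods for 5-ASA, a fold change above 1.5 in either direction with an unadjusted p below 0.05, 2 of the 10 genes passed (Fgfr4 and Spry1), where 4.15% of all genes did. The methods set that limit for treated cells against Ad-Control, with DESeq2, whereas here it was applied to treated against untreated cells with edgeR. The comparisons of Ad-OSCAR with Ad-Control and of treated with untreated cells rest on the same 3 Ad-OSCAR cultures. A high or low value in those cultures moves the 2 differences in opposite directions.

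**Figure D1:**
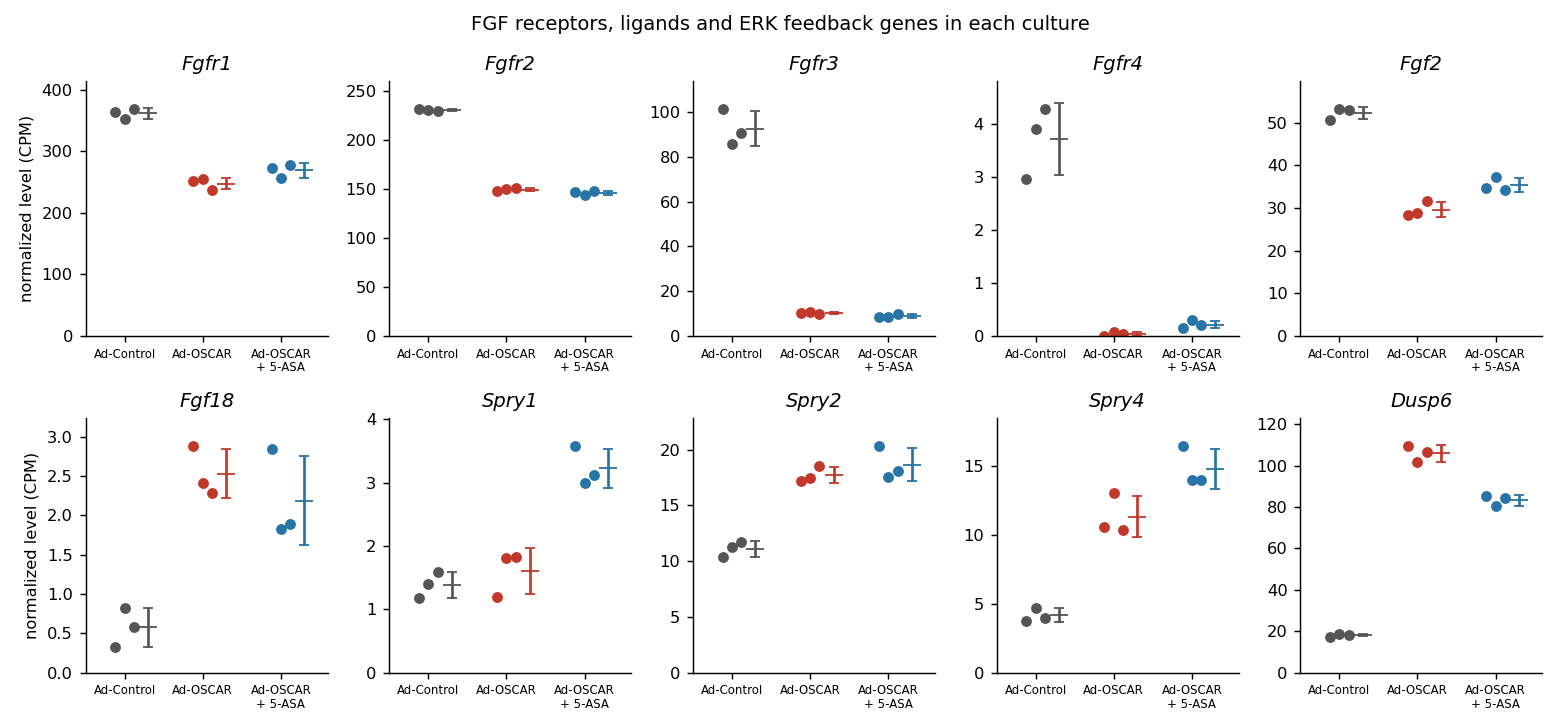
Level of each of the 10 genes in CPM in each of the 9 cultures, 1 panel per gene with its own axis from 0, with the mean and SD of each group of 3 (n = 3) beside the points. The receptors and Fgf2 sit lower in both Ad-OSCAR groups than in Ad-Control, Fgf18, Spry2, Spry4 and Dusp6 sit higher, and Spry1 stands apart only in the 5-ASA-treated group.

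All 4 receptors fell with Ad-OSCAR, by sizes that ran from less than a doubling for Fgfr1 and Fgfr2 to the near loss of Fgfr4. No receptor but Fgfr4 passed the test for 5-ASA.

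Fgfr1 (ENSMUSG00000031565.18, GRCm38 chr8:25513654-25575718, plus strand) was the receptor with the highest level. It measured 364, 352 and 368 CPM in Ad-Control, 252, 254 and 237 CPM in Ad-OSCAR and 274, 256 and 278 CPM with 5-ASA. The groups did not overlap, and Ad-OSCAR was lowest. It fell 1.46-fold with Ad-OSCAR (log2FC −0.55, SE 0.05, adjusted p = 7.3e-09, edgeR). The difference between treated and untreated cells, 0.12 on the log2 scale (SE 0.05, adjusted p = 0.0835, edgeR), did not pass the test, but did with DESeq2 (adjusted p = 0.0406) and without the second treated culture (log2FC 0.16, adjusted p = 0.0359, edgeR). In the other 15 of 17 alternative settings this difference did not pass, and it was as low as 0.01. On TPM the treated (118 to 134 TPM) and untreated cells (121 to 130 TPM) overlapped. The treated cells were lower than Ad-Control (log2FC −0.43, SE 0.05, adjusted p = 2.44e-07, edgeR). An antisense gene, Gm16159, overlaps this locus, and whether counting used the strand is not given in the sources used here.

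Fgfr2 (ENSMUSG00000030849.18, chr7:130162451-133123350, minus strand) is known for its role in skeletal growth and in response to FGF7 and FGF10. Its levels were 231, 231 and 229 CPM in Ad-Control, 148, 149 and 151 CPM in Ad-OSCAR and 146, 144 and 148 CPM with 5-ASA. Cultures of a group lay within a few CPM of each other, and the Ad-Control group stood clear above the other groups, which overlapped. Fgfr2 fell 1.54-fold (log2FC −0.63, SE 0.04, adjusted p = 1.77e-10, edgeR) and did not pass the test between treated and untreated cells (log2FC −0.03, SE 0.04, adjusted p = 0.649, edgeR). The annotated gene is very long and spans several other genes, between which RSEM may have divided reads.

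Fgfr3 (ENSMUSG00000054252.18, chr5:33721674-33737068, plus strand) fell furthest among the receptors with ample counts. It measured 101, 85.9 and 90.6 CPM in Ad-Control, 10.3, 10.7 and 9.78 CPM in Ad-OSCAR and 8.58, 8.43 and 9.96 CPM in treated cells. The Ad-Control cultures were far above all others, and treated and untreated cells overlapped. The fall was 9.02-fold (log2FC −3.17, SE 0.07, adjusted p = 6.73e-17, edgeR), and the 5-ASA difference was −0.19 on the log2 scale (SE 0.09, adjusted p = 0.168, edgeR). Treated cells were 10.3-fold lower than Ad-Control (log2FC −3.36, adjusted p = 4.4e-17, edgeR). The direction of this fall was also that of 12 of the 13 chondrocyte markers, 6 of the 7 fibroblast markers and 32.2% of all genes tested.

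Fgfr4 (ENSMUSG00000005320.9, chr13:55152640-55168759, plus strand), a receptor best known in liver and muscle, was rare in all groups. It had 63, 95 and 81 counts in the Ad-Control cultures, 0, 2 and 1 in the Ad-OSCAR cultures and 4, 8 and 5 in the treated cultures. The groups did not overlap, and the Ad-OSCAR group held 3 counts in all, so its fitted fold change depends on the prior count. As a ratio of depth-scaled counts, Ad-Control was above Ad-OSCAR 101-fold, with an exact 95% interval of 34.0 to 491 that covers counting error only, and the gene was called lower (adjusted p = 1.99e-10, edgeR). Treated cells were above untreated cells 5.86-fold (17 against 3 counts, exact 95% interval 1.69 to 31.2), and were called (adjusted p = 0.0281, edgeR). That call was lost without the first Ad-OSCAR culture (log2FC 1.81, adjusted p = 0.122), without the third (2.38, adjusted p = 0.0749) and without the second treated culture (2.10, adjusted p = 0.106, all edgeR), and on log2(TPM + 1) (0.20, adjusted p = 0.119, limma). Without the second Ad-OSCAR culture the fitted log2 differences were −7.36 for Ad-OSCAR and 3.29 for 5-ASA, against −6.47 and 2.40 with it. Ad-Control stood above the treated cells 17.2-fold (exact 95% interval 10.5 to 30.0).

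The makeup of the receptors differed accordingly. In Ad-Control, Fgfr1 (174 ± 3.18 TPM, SD, n = 3) and Fgfr2 (164 ± 6.79 TPM) overlapped in level, Fgfr3 followed at 48.2 ± 6.03 TPM and Fgfr4 at 2.13 ± 0.0987 TPM. In Ad-OSCAR the order was the same, with Fgfr1 at 125 ± 4.83 TPM and Fgfr2 at 111 ± 4.07 TPM no longer overlapping, Fgfr3 at 5.41 ± 0.308 TPM and Fgfr4 at 0.00 to 0.04 TPM. Treated cells measured 126 ± 8.34, 99.4 ± 2.7, 5.24 ± 1.01 and 0.173 ± 0.0681 TPM for the receptors in that order.

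As a share of the summed TPM of the 4 receptors, Fgfr3 held 12.4% ± 1.33 (SD, n = 3) in Ad-Control, 2.25% ± 0.0793 in Ad-OSCAR and 2.28% ± 0.499 with 5-ASA. Fgfr1 held 44.7% ± 1.64, 51.8% ± 1.35 and 54.5% ± 1.71, and Fgfr2 42.3% ± 1.27, 45.9% ± 1.3 and 43.1% ± 1.59. The shares of Fgfr1 and Fgfr3 did not overlap between Ad-Control and either Ad-OSCAR group. The summed receptor level was 388 ± 7.79 TPM in Ad-Control, 241 ± 6.49 TPM in Ad-OSCAR and 231 ± 8.40 TPM with 5-ASA. In the exact two-sided permutation test, the share of each receptor and the sum gave p = 0.1 between Ad-OSCAR and Ad-Control (0.125 with Benjamini-Hochberg adjustment over 15 comparisons), the smallest p that 3 cultures against 3 can give, so this test cannot reach 0.05. Between treated and untreated cells, the share of Fgfr1 was higher by 2.69 and that of Fgfr2 lower by 2.79 percentage points, without overlap (exact permutation p = 0.1 for each, also for Fgfr4). For Fgfr3 the exact permutation p was 0.9, and for the sum 0.2.

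**Figure D2:**
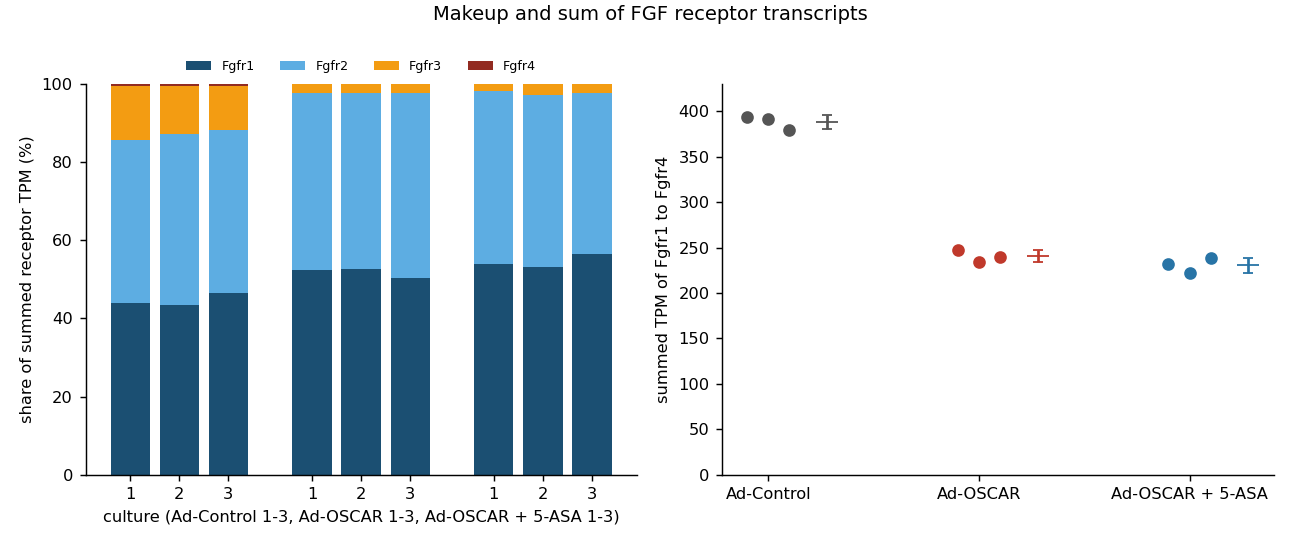
Left, share of each receptor in the summed TPM of Fgfr1 to Fgfr4, as stacked bars for each of the 9 cultures in percent. Right, the summed TPM in each culture with the mean and SD of the group (n = 3). The Fgfr3 band takes 11.2% to 13.8% of the bar in Ad-Control and 2.16% to 2.31% in Ad-OSCAR, while the sum went from 388 to 241 TPM.

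The ligands moved in opposite directions with Ad-OSCAR, Fgf2 down and Fgf18 up. Fgf2 (ENSMUSG00000037225.13, chr3:37348346-37410108, plus strand), a growth factor held in the pericellular matrix of cartilage, measured 50.8, 53.2 and 53.0 CPM in Ad-Control, 28.4, 28.9 and 31.6 CPM in Ad-OSCAR and 34.7, 37.2 and 34.2 CPM with 5-ASA. The groups did not overlap, with the treated cells between the others. Fgf2 fell 1.77-fold with Ad-OSCAR (log2FC −0.82, SE 0.06, adjusted p = 2.64e-10, edgeR) and rose with 5-ASA (log2FC 0.26, SE 0.06, adjusted p = 0.00343, edgeR). On TPM, whose values overlapped between treated and untreated cells, the rise was not called (difference 0.14 in log2(TPM + 1), adjusted p = 0.282, limma). Nudt6, which lies over Fgf2 on the other strand, had 30.57 to 72.86 counts per culture and passed neither test (log2FC −0.04 with adjusted p = 0.886 for OSCAR, and −0.15 with adjusted p = 0.710 for 5-ASA, edgeR).

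Fgf18 (ENSMUSG00000057967.12, chr11:33117430-33147400, minus strand), an anabolic ligand of cartilage, was rare in Ad-Control, with 7, 20 and 11 counts. It had 85, 59 and 63 counts in Ad-OSCAR and 74, 50 and 48 with 5-ASA. On the CPM scale these were 0.578 ± 0.246, 2.53 ± 0.312 and 2.19 ± 0.570 (SD, n = 3). Every Ad-OSCAR culture was above every Ad-Control culture, and treated and untreated cells overlapped. The rise was 4.29-fold (log2FC 2.10, SE 0.28, adjusted p = 3.56e-06, edgeR), and 5-ASA gave a log2FC of −0.21 (SE 0.22, adjusted p = 0.566, edgeR). Per length, Fgf2 was above Fgf18 by a factor of 16.5 ± 7.65 in Ad-Control, 1.89 ± 0.348 in Ad-OSCAR and 2.68 ± 0.712 in treated cells (ratio of TPM, SD, n = 3). The first ratio rests on the 7 to 20 counts of Fgf18.

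The Sprouty genes differed among themselves. Spry2 and Spry4 rose with Ad-OSCAR, whereas Spry1 was not called there and rose with 5-ASA. Sprouty proteins act between the receptor and RAF and dampen ERK activation by growth factors.

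Spry1 (ENSMUSG00000037211.12, chr3:37639947-37644598, plus strand) lies 230 kb from Fgf2 on the same chromosome. It measured 1.18, 1.40 and 1.59 CPM in Ad-Control, 1.19, 1.80 and 1.82 CPM in Ad-OSCAR and 3.58, 2.99 and 3.12 CPM with 5-ASA, from 25 to 93 counts per culture. Ad-Control and Ad-OSCAR overlapped, and all treated cultures were above all others. Ad-OSCAR differed from Ad-Control by 0.20 on the log2 scale (SE 0.22, adjusted p = 0.439, edgeR). With 5-ASA Spry1 rose 2.02-fold over untreated cells (log2FC 1.02, SE 0.19, adjusted p = 0.00103, edgeR), and over the 17 alternative settings the log2 difference was at least 0.57 with an adjusted p of at most 0.0183. Against Ad-Control the treated cells were also higher (log2FC 1.22, SE 0.20, adjusted p = 4.53e-05, edgeR).

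Spry2 (ENSMUSG00000022114.5, chr14:105891947-105896819, minus strand) was the most abundant Sprouty gene, at 9.62 ± 0.601, 15.7 ± 0.835 and 15.5 ± 1.10 TPM in Ad-Control, Ad-OSCAR and treated cells (SD, n = 3). It measured 10.3, 11.2 and 11.7 CPM in Ad-Control, 17.2, 17.4 and 18.6 CPM in Ad-OSCAR and 20.3, 17.5 and 18.1 CPM with 5-ASA. Ad-Control lay below both Ad-OSCAR groups, which overlapped. The rise was 1.60-fold (log2FC 0.68, SE 0.08, adjusted p = 6.59e-07, edgeR). Between treated and untreated cells the log2FC was 0.07 (SE 0.07, adjusted p = 0.550, edgeR), and on TPM its sign turned, to −0.02.

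Spry4 (ENSMUSG00000024427.7, chr18:38586247-38601415, minus strand) measured 3.78, 4.73 and 3.96 CPM in Ad-Control, 10.6, 13.0 and 10.3 CPM in Ad-OSCAR and 16.5, 14.0 and 14.0 CPM in treated cells. The groups did not overlap and stood in that order. Spry4 rose with Ad-OSCAR (log2FC 1.43, SE 0.12, adjusted p = 1.06e-08, edgeR) and again with 5-ASA (log2FC 0.39, SE 0.10, adjusted p = 0.0107, edgeR). The treated cells were 3.54-fold above Ad-Control (log2FC 1.82, SE 0.12, adjusted p = 2.61e-10, edgeR). The rise with 5-ASA was not called without the first Ad-OSCAR culture (adjusted p = 0.0648), the third (0.0574) or the first treated culture (0.0788, all edgeR), nor on TPM (adjusted p = 0.207 for log2(TPM + 1), limma). Its log2 difference in those fits was 0.34, 0.33, 0.31 and 0.24.

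Dusp6 (ENSMUSG00000019960.8, chr10:99263231-99267489, plus strand), the phosphatase that acts on ERK in the cytoplasm, had the largest rise of the 10 genes with Ad-OSCAR and was the only one called that rose with Ad-OSCAR and fell with 5-ASA. It measured 17.4, 18.8 and 18.3 CPM in Ad-Control, 110, 102 and 107 CPM in Ad-OSCAR and 85.4, 80.4 and 84.3 CPM with 5-ASA. Replicates lay close together and no groups overlapped. It rose 5.82-fold (log2FC 2.54, SE 0.05, adjusted p = 2.63e-17, edgeR) and was 1.27-fold lower with 5-ASA than without (log2FC −0.35, SE 0.05, adjusted p = 3.94e-05, edgeR). The treated cells were 4.58-fold above Ad-Control (log2FC 2.20, SE 0.06, adjusted p = 2.42e-16, edgeR). Per length, Dusp6 stood at 15.3 ± 2.76 TPM in Ad-Control, overlapping with Fgf2 (16.0 ± 0.582 TPM), and at 85.5 ± 4.03 TPM in Ad-OSCAR, above every member but Fgfr1 and Fgfr2.

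**Figure D3:**
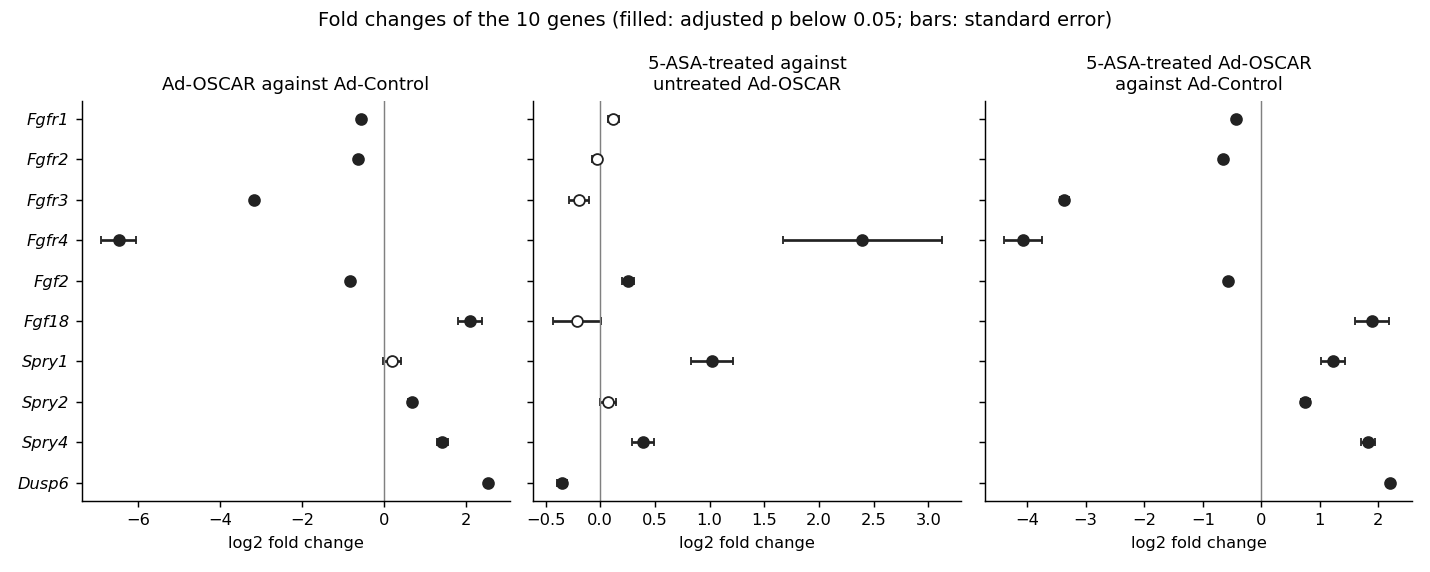
Log2 fold change of each of the 10 genes in the 3 comparisons, with the standard error as a bar and filled points where the adjusted p was below 0.05 (edgeR). The horizontal scales differ between panels: Fgfr4 at −6.47 and Dusp6 at 2.54 span the OSCAR comparison, and Spry1 at 1.02 and Dusp6 at −0.35 are the 5-ASA differences called under all settings.

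The sequence before the transcription start is shown for 4 of the feedback and ligand genes, since Fgf18, Spry2 and Dusp6 rose together with Ad-OSCAR while Spry1 did not pass the test. Starts were compared for 8 of the 10 members, and these 4 are the ones whose RefSeq and GENCODE starts are the same base. Fgfr1 and Spry4, which also rose with Ad-OSCAR, were not among the 8, so nothing is said of their starts. Each run holds the 250 bases before the start, read 5′ to 3′ on the gene's own strand from RefSeq (GRCm38.p6), and capitals mark the motif matches. Fgf18 is at chr11:33147401-33147650 (minus strand), Spry1 at chr3:37639697-37639946 (plus), Spry2 at chr14:105896820-105897069 (minus) and Dusp6 at chr10:99262981-99263230 (plus).
Fgf18: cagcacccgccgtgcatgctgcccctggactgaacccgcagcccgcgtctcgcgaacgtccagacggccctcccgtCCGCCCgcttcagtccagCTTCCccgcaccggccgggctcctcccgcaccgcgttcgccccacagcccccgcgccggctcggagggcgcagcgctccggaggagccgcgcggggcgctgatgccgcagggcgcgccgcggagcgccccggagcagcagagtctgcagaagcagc
Spry1: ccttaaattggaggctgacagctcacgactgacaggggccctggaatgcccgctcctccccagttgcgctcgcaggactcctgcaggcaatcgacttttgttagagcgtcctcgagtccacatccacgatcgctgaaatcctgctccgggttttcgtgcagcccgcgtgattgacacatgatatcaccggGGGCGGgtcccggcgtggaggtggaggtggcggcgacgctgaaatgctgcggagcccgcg
Spry2: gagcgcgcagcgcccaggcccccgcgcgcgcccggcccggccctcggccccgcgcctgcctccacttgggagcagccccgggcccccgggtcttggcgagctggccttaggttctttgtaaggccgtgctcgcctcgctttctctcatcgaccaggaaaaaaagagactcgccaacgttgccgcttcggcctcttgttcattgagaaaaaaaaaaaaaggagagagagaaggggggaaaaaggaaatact
Dusp6: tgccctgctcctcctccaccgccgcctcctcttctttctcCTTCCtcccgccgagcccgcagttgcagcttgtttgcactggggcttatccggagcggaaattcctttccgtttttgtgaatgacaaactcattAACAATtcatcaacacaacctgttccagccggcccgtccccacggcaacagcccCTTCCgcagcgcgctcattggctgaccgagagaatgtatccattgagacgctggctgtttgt

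Both strands were searched for 9 motifs: the ETS site CCGGAAG and its core GGAAG, which lies within it, the AP-1 site TGACTCA or TGAGTCA, the CRE TGACGTCA and its shorter form TGACGT, the E-box CACGTG, the SOX site AACAAT, the GC box GGGCGG and the TATA box TATAAA. Dusp6 held the ETS core on the reverse strand at 210 and 62 bases before the start and a SOX match at 116. Fgf18 held the ETS core, also on the reverse strand, at 156 bases and a GC box at 174. Spry1 held a GC box at 60 bases, and Spry2 held no match in this window. Of 32851 mouse promoter windows of this length, 64.1% held the ETS core, 32.7% a GC box and 9.42% the SOX site, so that matches to the first and second are common. The full ETS site (6.91% of windows), AP-1 (4.46%), the CRE (1.55%), its shorter form (6.47%), the E-box (6.02%) and the TATA box (12.4%) were not found in these 4 windows. The GC content was 77.2% for Fgf18, 62.4% for both Spry1 and Spry2, and 56.4% for Dusp6.

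Across the genes nearest in pattern, Fgfr1 was most like Emilin1 and Plcd1 (Pearson r of log2 CPM 0.998 for both), Fgf2 most like Efcab1 and 1190002N15Rik (0.996 for both), Spry2 most like BC048403 (0.996) and Syt17 (0.993), and Dusp6 most like Gm20186 and Slc8a1 (0.999 for both). These describe 9 cultures that fall into 3 groups, so each r largely follows the group means, among 13266 genes compared.

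Of 90 other genes of the pathway, 89 were listed in the files and 75 could be tested. With Ad-OSCAR 40 rose and 21 fell, where 32.7% of all genes tested were higher and 32.2% lower, and with 5-ASA 14 rose and 4 fell, where 10.4% were higher and 7.38% lower. On TPM 4 of these rose and 4 fell with 5-ASA.

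Among 20 other genes of the FGF family, 10 could be tested. They were listed by family name, Fgf11 to Fgf14 included, and the list was not limited to secreted ligands. The count and median that follow are therefore not those of ligands alone, and Fgf14 is among the genes that rose. With Ad-OSCAR 6 rose and 1 fell, with a median log2FC of 0.88. Fgf7, a ligand of FGFR2 made by mesenchymal cells, had the highest level per length of the ligands examined, at 156 ± 12.4 TPM in Ad-Control, 318 ± 14.6 TPM in Ad-OSCAR and 360 ± 22.5 TPM with 5-ASA (SD, n = 3). It rose 2.17-fold with Ad-OSCAR (SE 0.06 on the log2 scale, adjusted p = 8.97e-12, edgeR) and with 5-ASA (log2FC 0.26, SE 0.06, adjusted p = 0.00433, edgeR). Fgf10, which signals through the same receptor, measured 12.5 ± 1.01 CPM in Ad-Control, 55.9 ± 2.21 CPM in Ad-OSCAR and 48.4 ± 1.59 CPM with 5-ASA. It rose with Ad-OSCAR (log2FC 2.16, SE 0.06, adjusted p = 1.78e-15, edgeR) and fell with 5-ASA (log2FC −0.21, SE 0.05, adjusted p = 0.00952, edgeR).

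Fgf9, a ligand of FGFR3 in the skeleton, had 13, 19 and 4 counts in Ad-Control, 131, 112 and 108 in Ad-OSCAR and 129, 120 and 103 in treated cells, and rose with Ad-OSCAR (log2FC 2.95, SE 0.24, adjusted p = 4.83e-09, edgeR). Fgf1 had 7 to 13 counts in Ad-Control and 30 to 41 in Ad-OSCAR and was called higher (2.83-fold, SE 0.31 on the log2 scale, adjusted p = 3.88e-04, edgeR). Its mean was 0.727 TPM in Ad-Control and 0.670 TPM in Ad-OSCAR, as the mean transcript length that RSEM assigned went from 1680 to 3549 bases, so its direction turns per length. Fgf16, named after its values were seen, had no counts in Ad-Control and 8 to 15 in each of the other cultures. Fgf21, a metabolic hormone likewise chosen after its values were seen, had 33, 46 and 29 counts in Ad-Control, 3, 6 and 2 in Ad-OSCAR and 17, 21 and 25 with 5-ASA. It fell with Ad-OSCAR (log2FC −3.57, SE 0.38, adjusted p = 1.49e-07, edgeR) and rose with 5-ASA (log2FC 2.52, SE 0.42, adjusted p = 2.97e-04, edgeR). None of its groups overlapped.

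Of 17 co-receptors and binding proteins, 15 could be tested, and 6 rose and 8 fell with Ad-OSCAR (median log2FC −0.24). The decoy receptor Fgfrl1, which binds FGFs and lacks a kinase, measured 126 ± 7.58 CPM in Ad-Control and 37.1 ± 1.92 CPM in Ad-OSCAR (log2FC −1.76, SE 0.06, adjusted p = 1.2e-14, edgeR). Flrt1, a membrane protein that binds FGF receptors, fell by 1.60 and the heparan sulfate proteoglycan Gpc6 by 1.24 on the log2 scale (adjusted p = 1.19e-05 and 1.6e-12, edgeR). With 5-ASA 5 rose and none fell by edgeR or by DESeq2, with 7 higher and none lower at an unadjusted p below 0.05, while on log2(TPM + 1) Sdc2 alone was called. The syndecans Sdc2 and Sdc4, cell surface heparan sulfate proteoglycans, and Flrt2 had log2 differences of 0.27, 0.20 and 0.19 (adjusted p = 2.19e-04, 0.00344 and 0.0264, edgeR).

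Of 21 adaptors and kinases of the RAS-ERK cascade, 8 rose and 5 fell with Ad-OSCAR, with a median log2FC of 0.01. The genes called were 61.9% of this list, near the 65.0% of all genes tested. The docking protein Frs3 and the scaffold Ksr1 rose (log2FC 0.75 and 0.67, adjusted p = 2.01e-05 and 0.00164, edgeR), and the adaptor Gab1 fell (log2FC −0.69, SE 0.06, adjusted p = 9.27e-09, edgeR). With 5-ASA 3 of the 21 rose and 1 fell, or 19.0% of the list, near the 17.8% of all genes tested. Among them, Gab1 and the kinase Braf rose (log2FC 0.27 and 0.16, adjusted p = 0.00403 and 0.0199, edgeR) and Hras fell (log2FC −0.25, SE 0.06, adjusted p = 0.00669, edgeR).

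Of 15 other inhibitors of ERK signaling, 13 could be tested, and 9 rose and 2 fell with Ad-OSCAR (median log2FC 0.49). The nuclear ERK phosphatase Dusp4 went from 0.892 ± 0.153 to 3.57 ± 0.177 CPM (log2FC 2.00, SE 0.19, adjusted p = 4.33e-08, edgeR). Spred3, of the Sprouty-related family, went from 14.3 ± 0.986 to 51.0 ± 1.41 CPM (log2FC 1.83, SE 0.06, adjusted p = 9.28e-15, edgeR). Errfi1, an inhibitor of the EGF receptor, went from 121 ± 4.91 to 331 ± 8.46 CPM (log2FC 1.46, SE 0.04, adjusted p = 3.68e-15, edgeR). The 2 that fell were Dusp5 (log2FC −0.81) and Dusp7 (log2FC −0.70). With 5-ASA none of the 13 was called by edgeR, 2 had an unadjusted p below 0.05, and their median log2FC was −0.03. DESeq2 called 1 of them higher (Spred1, named after its values were seen).

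Of 17 transcription factors and targets that ERK is known to induce, 16 could be tested, and 11 rose and 5 fell with Ad-OSCAR (median log2FC 0.73). The 3 ETS factors of the PEA3 family did not move as 1 group. Etv4 rose from 1.22 ± 0.268 to 6.53 ± 1.19 CPM (log2FC 2.42, SE 0.18, adjusted p = 1.45e-09, edgeR) and Etv1 from 10.5 ± 0.775 to 50.5 ± 3.07 CPM (log2FC 2.26, SE 0.07, adjusted p = 3.13e-15, edgeR). Etv5 fell from 55.1 ± 2.55 to 32.2 ± 0.674 CPM (log2FC −0.77, SE 0.05, adjusted p = 4.02e-10, edgeR). Phlda1, a growth factor response gene, rose (log2FC 2.10, SE 0.07, adjusted p = 1.36e-14, edgeR), and Myc and the cell cycle gene Ccnd1 fell (log2FC −0.93 and −1.58, adjusted p = 1.73e-10 and 2.23e-14, edgeR).

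With 5-ASA 4 of the 16 rose and 2 fell. Myc was at 31.7, 37.1 and 31.8 CPM in untreated and 47.9, 48.6 and 46.2 CPM in treated Ad-OSCAR cells (log2FC 0.51, SE 0.06, adjusted p = 1.22e-05, edgeR). Etv5 was at 32.8, 32.4 and 31.5 CPM in untreated and 45.0, 41.4 and 45.3 CPM in treated cells (log2FC 0.45, SE 0.05, adjusted p = 1.2e-05, edgeR). Neither gene overlapped between these groups, and the treated cultures stayed below Ad-Control. Ccnd1 rose as well (log2FC 0.28, SE 0.06, adjusted p = 0.00186, edgeR). Etv1 and Egr1, which had risen with Ad-OSCAR, fell with 5-ASA (log2FC −0.26 and −0.21, adjusted p = 0.00334 and 0.00744, edgeR).

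**Figure D4:**
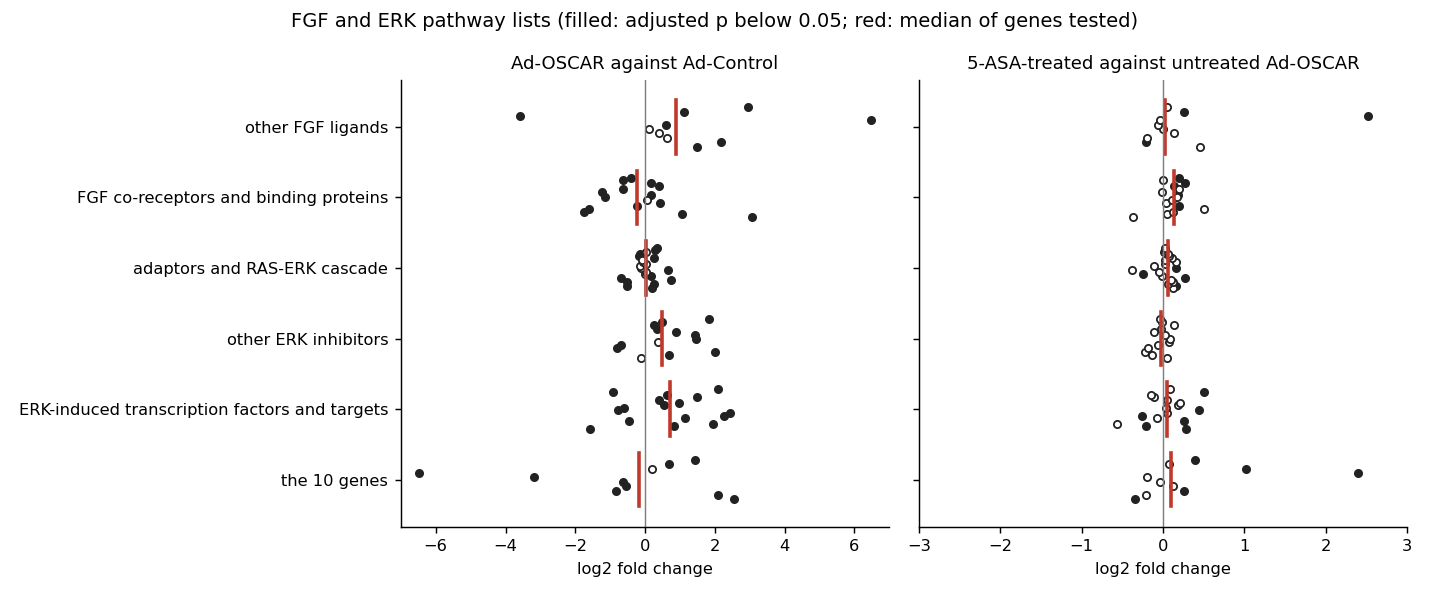
Log2 fold change of each tested gene of the 5 other pathway lists and of the 10 genes, for Ad-OSCAR against Ad-Control (left) and treated against untreated Ad-OSCAR cells (right), with the median of each list as a red line and filled points where the adjusted p was below 0.05 (edgeR). The horizontal scales differ between panels. The inhibitors have 9 genes called higher on the left and none called on the right (edgeR).

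In treated cells against Ad-Control all 10 genes were called, 5 higher (Fgf18, Spry1, Spry2, Spry4 and Dusp6) and 5 lower, where 63.2% of all genes tested were called, 31.4% higher and 31.8% lower. Their median log2FC was 0.16, beside 0.01 over all genes. By that limit of the methods for 5-ASA, 8 of the 10 passed, with Fgfr1 and Fgf2 outside it, where 29.9% of all genes did. This comparison holds OSCAR overexpression and the drug together.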

How the data were processed

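The members and gene lists were chosen with earlier results of these data known. RNA of 9 cultures was sequenced from stranded mRNA libraries. According to the methods and the processing notes, the authors aligned reads to GRCm38 with STAR 2.7.1a and quantified genes with RSEM 1.3.1, while a reporting summary names another RSEM version and the strand setting is not given in the sources used here. The deposited files hold estimated counts, TPM and FPKM per gene with RSEM's transcript lengths, all made by the authors, and FPKM was not used. RSEM divides reads between genes they match, and counts were not whole for 8.97% to 10.1% of genes. Symbols and coordinates came from GENCODE M21 (GRCm38), in which 55144 of 55471 genes were found.

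Estimated counts were rounded and tested with edgeR 4.0.16 in R 4.3.3 (TMM, filterByExpr by group, quasi-likelihood F test, 1 fit of 9 cultures by group). With 15362 genes kept, the biological variation (BCV) came to 5.11%. SE is the log2FC divided by the root of F. Replicates differed more than sampling noise (chi-square per degree of freedom 4.25 to 8.10). Receptor shares of TPM were compared by exact permutation, and low counts by exact conditional binomial intervals (95%), which cover counting error only. Named genes were the 10 members and, per list and comparison, up to 3 called genes with the largest log2FC and a mean of at least 1 CPM, plus 2 genes nearest in pattern to the most abundant member of each role. Fgf16, Fgf21, Dusp5, Dusp7, Spred1 and Egr1 lie outside this rule and were picked with their values in view. Alternatives were DESeq2 1.42.0, RLE, no filter, a minimum of 10 counts per culture, a fit restricted to the groups compared, a block for replicate number, limma 3.58.1 on log2(TPM + 1) and log2(TPM + 0.1), and each culture left out. The methods were tested on simulated counts. Tables and figures used Python 3.11.15, pandas 2.3.3, scipy 1.17.1 and matplotlib 3.10.9.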

Additional observations from a re-analysis of the deposited data

How the results depend on the processing

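The calls of the 10 genes for Ad-OSCAR and for treated cells against Ad-Control held under every alternative in which the gene could be tested. The filter of 10 counts in every culture removed Fgfr4 and Fgf18. The 5-ASA calls depended more on the setting. Of the 10 genes, 2 were called for 5-ASA with limma on log2(TPM + 1) and 3 on log2(TPM + 0.1), and between 3 and 5 with 1 culture left out (3 without the first and 3 without the third Ad-OSCAR culture). Of the other pathway genes, 8 were called for 5-ASA on either TPM scale against 18 in the count test, and 14 to 20 with 1 culture left out. On those scales the median log2FC of all genes was −0.08 and −0.10, the calls over all genes were 562 higher and 1487 lower or 560 and 1439, and Spry2 changed sign, to −0.018946 and −0.020096. The cause was not tested. Fgf2 and Spry4 lost their call for 5-ASA on both scales, and Fgfr4 on log2(TPM + 1). With only treated and untreated Ad-OSCAR cells in the fit, Fgfr4 did not pass the filter, and 4 of the other 9 genes were called. The difference in the Fgfr3 share between treated and untreated cells, 0.0319 percentage points, became −0.404 as a share of CPM and ranged from −0.23 to 0.27 with 1 culture left out (−0.226 without the second treated and −0.0132 without the second Ad-OSCAR culture). With the replicate number as a replicate block, 9, 5 and 10 of the 10 genes and 61, 16 and 59 of the other pathway genes were called for OSCAR, for 5-ASA and for treated cells against Ad-Control. Deviations of same-numbered cultures correlated at −0.0724 to 0.0402, so no shared effect of the number was seen. These correlations cannot tell whether same-numbered cultures came from the same preparation. Among the 10 genes, Fgfr4, Fgf18 and Spry1 had under 100 counts in every culture, which limits their precision.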
